A study of Mus musculus with 13 samples.

Results

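The step across lights off is the change in whole back skin from ZT10 to ZT14, over the 4 h in which the lights of the animal room went out. ZT, zeitgeber time, counts the hours since the lights came on, and lights off is at ZT12. The arrays were assigned to the step by their collection hour alone. ZT10 was collected at hours 10 and 34 and ZT14 at hours 14 and 38, so 4 of the 13 arrays hold the step, 2 on each side, and each collection day gives 1 step of its own. Both groups were male C57Bl6 mice at postnatal day 46 and their hair follicles were in telogen, when hair growth rests. The labels name no altered gene and no treatment in either group, the mice had free access to standard chow, and light and dark lasted 12 h each. Each array held RNA pooled in equal amounts from 3 mice. The spread between arrays of 1 time of day is therefore the spread between pools, and differences between animals were averaged within a pool.

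In mammalian cells the clock proteins BMAL1 and CLOCK bind E-box sequences and switch on genes of their own repressors, the period, cryptochrome, REV-ERB, DEC and CHRONO proteins, which then shut the pair down again. Lights off is the start of the active and feeding phase of a mouse, in which body temperature, locomotion and food intake are higher than in the light phase. Genes that follow these signals include the heat shock chaperones, the cold-inducible RNA-binding proteins, and the genes of fat and glycogen storage that answer to insulin.

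Whole back skin contains epidermis, dermis, follicles, fat and the thin muscle sheet under the skin, and markers of these were bright on the 13 arrays. The epidermal keratin Krt5 lay between 14203 and 15571 intensity units, the dermal collagen Col1a1 between 10928 and 18388, the muscle actin Acta1 between 12400 and 16232 and the fat hormone Adipoq between 3673 and 4858. Array medians lay between 353.8 and 392.8. A list of 15 liver transcripts was also bright, and it varied far more than the skin markers. Summed over the list, intensity was 125920 at hour 10, 31042 at hour 34, 81948 at hour 14 and 113050 at hour 38, so the ZT10 arrays held the highest and the lowest of the 4 values. The liver product Alb alone read 18489, 8511, 15938 and 18775 in the same order. Over all 13 arrays the liver sum ran from 20918 to 125920 with a median of 78477, so hour 10 was the highest of the series. Among the 4 arrays of the step, hour 34 was the one that stood apart. Across the genes tested it correlated with hours 10, 14 and 38 at 0.949, 0.967 and 0.953, while the other pairs of the 4 arrays correlated at 0.985 to 0.992. These are correlations across genes of single arrays, and genes are not independent replicates. For gene lists, the count with hour 10 alone as ZT10 is given where it differs from the count on all 4 arrays by over 1.5 times. By that count both ZT14 arrays read above hour 10 in 29.9% of all genes and below it in 46.7%. In the liver list they read below hour 10 in 13 of 15 genes and above it in 0, so hour 10 alone is no neutral reference for liver transcripts.

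**Figure D1:**
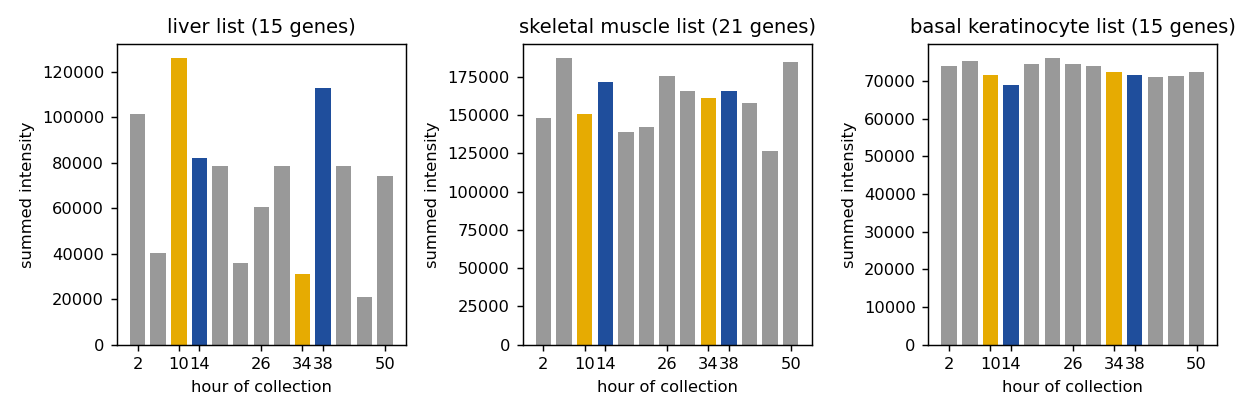
Summed intensity (y axis) of the liver list (15 genes), the skeletal muscle list (21 genes) and the basal keratinocyte list (15 genes) by hour of collection (x axis), 1 bar per array, with ZT10 in yellow, ZT14 in blue and other times in grey. The liver sum was 125920 at hour 10 and 31042 at hour 34, whereas the basal keratinocyte sum stayed between 68891 and 76062 on all 13 arrays.

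No gene passed the test for the step across lights off. In a limma model of the 6 times of day over all 13 arrays, 0 of 14953 genes differed between ZT14 and ZT10 at an adjusted p under 0.05 after Benjamini-Hochberg adjustment (0%), with 0 higher (0%) and 0 lower (0%). The unadjusted p was under 0.05 for 580 genes, 138 of them higher at ZT14 and 442 lower, where 748 would be under it with no difference at all. Weighting the arrays by their fit gave 55 calls, 20 higher and 35 lower, and leaving out the array of hour 2 gave 1, Hsph1. The median difference over all genes was -0.04 on the scale of log2(intensity + 16), and 214 genes differed by more than 1.5-fold. With 2 arrays a side an exact permutation test cannot give a p under 0.333, so single genes are described below by their values on each array. Groups that do not overlap are common between 2 and 2 arrays: for 2199 genes (14.7%) both ZT14 arrays lay above both ZT10 arrays, and for 5320 genes (35.6%) both lay below. That split shifted to 2960 higher and 3979 lower after quantile normalization, so counts of lower genes in particular depend on the scaling. The gene lists below were drawn up with earlier results of these data known, and their counts are set beside these shares as descriptions, with no test.

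Size and repetition gave a shorter list. In 24 genes the step passed 1.5-fold in 1 direction on both days, 15 genes up (0.1% of those tested) and 9 down (0.0602%). The other 5 steps between neighbouring times of day gave 23, 24, 68, 230 and 290 such genes, so the count for lights off is among the smallest of the 6. The 2 largest counts lay on either side of ZT22, with 229 genes down from ZT18 to ZT22 and 285 up from ZT22 to ZT2. The liver sums at ZT22 were 35781 and 20918, against a median of 78477 over the series. Across lights off, 200 genes passed 1.5-fold in opposite directions on the 2 days. The part of liver transcripts in these counts was not tested. The direction was shared between the days by 62.2% of all genes tested. The genes with higher values at ZT14 were Angptl8, Ppp1r3c, Cyp4a12a, Thrsp, Lrrc30, Cyp4a12b, Serpina4-ps1, Hsph1, Arntl, Fos, Pnpla3, Dnaja1, Snord87, Rnu5g and Lonrf3. Those with lower values were Ciart, Nr1d1, Aldh1l2, Lilr4b, Chac1, Bhlhe41, Vsnl1, S100a4 and Cirbp. In Cyp4a12a, Cyp4a12b and Serpina4-ps1 the arrays of the 2 times overlapped, since hour 10 read above hour 38. In each of them hour 34 was the lowest of the 4 arrays, at 148, 143 and 108. Their unadjusted p in limma was 0.068, 0.10 and 0.12. The Cyp4a12 pair, like Lilr4b and its neighbour Lilrb4a, are near-identical copies whose probes may not tell them apart. At the edge of the rule, Cirbp, Lonrf3 and Fos lay just inside, with a smaller step of -0.59, 0.59 and 0.59, and Asb2 just outside, with steps of 0.94 and 0.57.

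**Figure D2:**
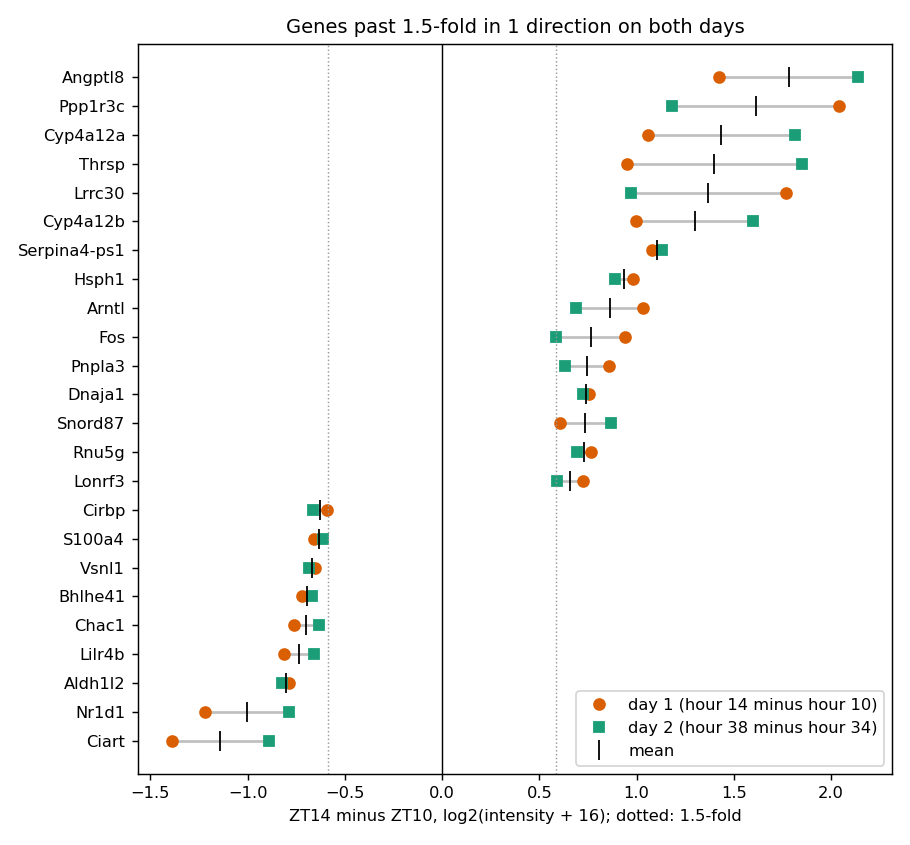
Difference between ZT14 and ZT10 on the scale of log2(intensity + 16) (x axis) for the 24 genes past 1.5-fold in 1 direction on both days (y axis), with day 1 as circles, day 2 as squares and the mean as a bar. Angptl8 lies farthest to the right with a mean of 1.78 and Ciart farthest to the left with -1.14, and the dotted lines mark 1.5-fold.

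The chaperone genes were higher after lights off and the 2 cold-inducible genes tested were lower. Of 17 heat shock genes tested, both ZT14 arrays read above both ZT10 arrays in 15 and below them in 0, where 14.7% of all genes were above. None of the 17 passed the test (0 called), 7 were higher at an unadjusted p under 0.05, and the median difference was 0.20 against -0.04 over all genes. The median was 0.24 on day 1 and 0.17 on day 2. Taking hour 10 alone for ZT10, both ZT14 arrays read above it in 16 of 17, against 29.9% of all genes. In whole tissue, more RNA per cell and more cells of a kind cannot be told apart, here and in the results that follow.

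Hsph1 encodes HSP110, which recharges the HSP70 chaperone by exchanging its nucleotide. It read 532 and 530 at hours 10 and 34, then 1067 and 994 at hours 14 and 38. The ZT10 pair was the lowest of the whole series, where the other arrays lay between 590 and 1122. The difference was 0.93 ± 0.12 (SE) on the log2 scale, 1.91-fold, with the smallest p of all genes. That p was 6.41e-06, and after adjustment by limma over all genes it was 0.0958, short of the threshold. Over 26 alternative settings the difference stayed between 0.88 and 0.98 and its adjusted p ranged from 6.45e-04 to 0.9998, with 4 calls, which came with quantile normalization, arrays shifted to 1 median, array weights, and the fit without hour 2. Without hour 34 the difference was 0.93.

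Close to both of its RefSeq transcription starts, Hsph1 carries the alternating triplets of a heat shock element, the sequence bound by heat shock factor. It lies at bases 16 to 28 from one start and 37 to 49 from the other, in the 30 bases shown here because the gene has the smallest p of the step (GRCm38.p6, chr5:149636279-149636308, minus strand). The capitals mark the element.
Hsph1: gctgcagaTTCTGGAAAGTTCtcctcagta
The motif searched was 3 triplets with 2 free bases between them, GAA, TTC and GAA or TTC, GAA and TTC, on both strands, and 0.603% of 32851 RefSeq promoters of 300 bases held it. Of the genes up on both days, 1 of 10 with a RefSeq promoter did, and of those down, 0 of 8. A match of letters is a description and was not tested for binding.

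Dnaja1, an HSP40 partner of HSP70, read 2510 and 2109 at ZT10 and 4247 and 3497 at ZT14. Its steps were 0.75 and 0.73 on the 2 days, and the difference of 0.74 ± 0.18 had an adjusted p of 0.801. The small chaperone Hspb8, which was not on the list, read 3982 and 3706, then 5610 and 5412, a difference of 0.52 ± 0.10. The stress-induced HSP70 gene Hspa1a and the cytosolic HSP90 gene Hsp90aa1, picked after their values were seen, differed by 0.51 and 0.42. At the other end of the list, Hspe1 and Hspa4 differed by 0.09 and 0.03 and their arrays overlapped.

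Cirbp and Rbm3 encode RNA-binding proteins that accumulate when cells are cooled. Cirbp read 1012 and 1186 at ZT10 and 666 and 742 at ZT14, with steps of -0.59 and -0.67. Its difference was -0.63 ± 0.14 with an adjusted p of 0.721, and -0.52 without hour 34. Rbm3 read 6122 and 6468, then 4506 and 4997, a difference of -0.41 ± 0.17. Both ZT14 arrays were below both ZT10 arrays in each of these 2 genes, in the direction opposite to the chaperones. Of all genes 35.6% were below, so a count over 2 genes says little.

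Among genes of protein folding in the endoplasmic reticulum, 9 of 22 were above without overlap (40.9%, against 14.7% of all genes) and 6 below (27.3%, against 35.6%), with a median of 0.09. The chaperone Hspa5 read 3287 and 3061, then 4306 and 3721, and Hyou1, its HSP110-like partner, read 927 and 833, then 1090 and 1076. Chac1, a glutathione-degrading enzyme of the integrated stress response, went the other way, from 833 and 831 to 484 and 530.

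In the clock, the ZT10 arrays held the lowest values of the series for some genes and the highest for others. Arntl, the gene of BMAL1, read 369 and 409 at ZT10 and 774 and 670 at ZT14. The ZT10 arrays were the lowest of the series, and the gene went on to 1663 and 1329 at ZT18. Its difference was 0.86 ± 0.16 with an adjusted p of 0.429, and 0.93 without hour 34. Its partner Clock read 1611 and 1739, then 1935 and 1940, a difference of 0.21 ± 0.11. The other activators tested, Arntl2 and Rora, were slightly lower at ZT14, by -0.17 and -0.13.

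The repressors split. The list of 12 tested also holds the kinase genes Csnk1d and Csnk1e. Of the 12, 6 were lower at ZT14 without overlap, 3 were higher and 3 overlapped, against 35.6% lower and 14.7% higher of all genes. Csnk1e, at a difference of 0.05, was among the higher ones, and Csnk1d was among those that overlapped. The largest lower value was that of Ciart, which encodes CHRONO, a repressor of the BMAL1 and CLOCK pair. That rank is among genes with an unadjusted p under 0.05 in limma, 1 sign on both days and no overlap. Ciart read 2658 and 2573 at ZT10, its highest values of the series, and 1006 and 1380 at ZT14. The difference was -1.14 ± 0.23 with an adjusted p of 0.624. Nr1d1, the gene of REV-ERB alpha, which represses Arntl, read 8196 and 8632 and then 3510 and 4991. It was 2.01-fold lower, with steps of -1.22 and -0.79 and an adjusted p of 0.757. Its relative Nr1d2 read 2820 and 2919, then 2041 and 2224. Bhlhe41, the gene of DEC2, read 1281 and 1370, then 771 and 856, a difference of -0.70 ± 0.20, while in its relative Bhlhe40 the arrays of the 2 times overlapped.

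The period and cryptochrome genes did not share 1 direction. Per1 was lower at ZT14, with 3497 and 3611 before and 2257 and 2530 after, and Per3 was lower by -0.36. Per2 was higher on both ZT14 arrays, at 1904 and 1768 against 1545 and 1537, and these 4 values were its highest of the series. Cry1 read 368 and 360 at ZT10 and 578 and 491 at ZT14, a difference of 0.53 ± 0.15, whereas Cry2 differed by 0.04 ± 0.13. Csnk1d and Csnk1e, kinase genes whose products mark period proteins for decay, differed by -0.03 and 0.05.

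Among 10 output genes of the clock, 5 were lower without overlap (50%, against 35.6% of all genes) and 2 higher (20%, against 14.7%). Dbp, a PAR bZIP activator, read 6524 and 6225, then 3160 and 4696. Nfil3, which competes with it for the same sites, was among the higher ones, with 250 and 231 before and 390 and 347 after, a difference of 0.58 ± 0.15. Wee1, a kinase that holds back mitosis, read 1794 and 1948, then 1380 and 1366. The remaining outputs differed by -0.27 (Klf9) to 0.16 (Usp2). Tef and Klf15 were near 0, at 0.04 and 0.02.

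**Figure D3:**
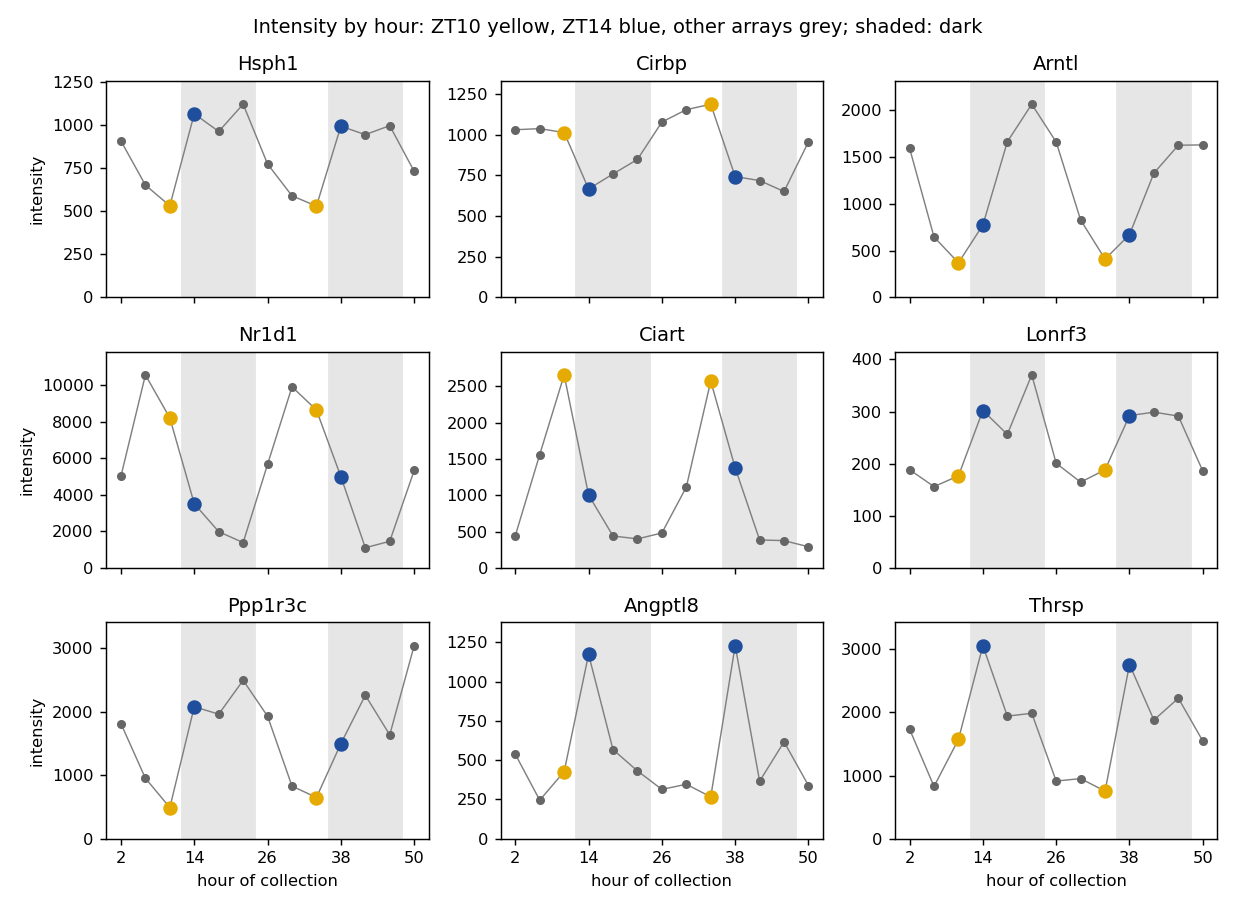
Intensity (y axis, from 0) of 9 genes over the 13 arrays by hour of collection (x axis), with ZT10 in yellow, ZT14 in blue, other arrays in grey and the dark phase shaded. Hsph1, Arntl, Lonrf3, Ppp1r3c, Angptl8 and Thrsp are higher on the blue points than on the yellow ones in both cycles, and Cirbp, Nr1d1 and Ciart are lower; Ciart reads 2658 and 2573 on the yellow points and 1006 and 1380 on the blue ones.

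The E-box letters CACGTG, which read the same on both strands, stood in 7.15% of 32851 RefSeq promoters of 300 bases. By gene they stood in 1294 of 11796 genes tested that had a RefSeq promoter (10.97%), in 3 of 10 genes up on both days and in 2 of 8 genes down on both days. Promoters on both sides of the list held the letters: Ppp1r3c, Lonrf3 and Hsph1 were higher at ZT14, Ciart and Bhlhe41 lower. The 250 bases before the start are shown for 4 of these genes, which went in opposite directions with the same motif. Capitals mark each E-box. Ciart (chr3:95882229-95882478, minus strand) has 3, beginning 116, 58 and 44 bases before the start, Bhlhe41 (chr6:145865421-145865670, minus strand) has 1 at 153, Lonrf3 (chrX:36328159-36328408, plus strand) 1 at 45 and Ppp1r3c (chr19:36736605-36736854, minus strand) 1 at 104, all in GRCm38.p6.
Ciart: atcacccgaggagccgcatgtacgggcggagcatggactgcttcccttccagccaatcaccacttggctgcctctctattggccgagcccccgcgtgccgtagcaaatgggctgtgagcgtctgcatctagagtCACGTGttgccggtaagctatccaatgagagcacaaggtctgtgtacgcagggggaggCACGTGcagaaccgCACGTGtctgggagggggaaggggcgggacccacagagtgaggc
Bhlhe41: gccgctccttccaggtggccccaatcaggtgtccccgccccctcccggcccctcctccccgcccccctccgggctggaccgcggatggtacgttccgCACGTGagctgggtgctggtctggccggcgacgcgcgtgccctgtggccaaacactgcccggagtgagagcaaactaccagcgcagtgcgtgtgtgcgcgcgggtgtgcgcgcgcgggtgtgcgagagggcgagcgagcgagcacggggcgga
Lonrf3: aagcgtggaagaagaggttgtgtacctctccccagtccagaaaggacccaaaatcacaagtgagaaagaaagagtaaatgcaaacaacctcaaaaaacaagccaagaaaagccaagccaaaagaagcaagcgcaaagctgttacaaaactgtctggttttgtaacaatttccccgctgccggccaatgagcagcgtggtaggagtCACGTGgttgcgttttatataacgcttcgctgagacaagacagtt
Ppp1r3c: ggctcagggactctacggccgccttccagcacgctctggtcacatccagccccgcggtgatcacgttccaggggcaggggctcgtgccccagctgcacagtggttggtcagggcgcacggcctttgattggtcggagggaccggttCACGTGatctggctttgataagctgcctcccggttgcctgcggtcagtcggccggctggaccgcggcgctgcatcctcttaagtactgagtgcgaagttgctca
Motifs were counted independently and may overlap. The D-box letters TTATGTAA, either strand, stood in 0.938% of promoters and in 0 of the 18 genes past 1.5-fold on both days with a promoter. The core AGGTCA of REV-ERB and ROR sites, either strand, stood in 16.255% of promoters, in 3 of 10 genes up and in 1 of 8 down. No match says only that these letters are not in this window.

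Single genes of fat storage had some of the largest values above ZT10, while the lists of adipocyte markers and of lipid droplet genes did not stand apart. Of 13 adipocyte markers, 2 were higher at ZT14 without overlap (15.4%, against 14.7% of all genes) and 0 lower, with a median of 0.011, and Adipoq, Fabp4 and Plin1 differed by -0.0085, -0.05 and -0.11. Against hour 10 alone, 2 were higher (15.4%, against 29.9% of all genes) and 3 lower (23.1%, against 46.7%). Of 14 lipid droplet and lipolysis genes, 2 were higher (14.3%) and 5 lower (35.7%), the shares of all genes. Angptl8 encodes a hormone of fat and liver that is induced by feeding and curbs lipoprotein lipase. It read 427 and 266 at ZT10 and 1173 and 1228 at ZT14, 3.44-fold, while the 9 arrays of other times read between 246 and 617. The ZT14 pair stood above the rest of the series in both cycles. The difference was 1.78 ± 0.31 with an adjusted p of 0.429 over all genes, and 1.46 without hour 34. Thrsp, a nuclear activator of lipid synthesis, read 1574 and 754 and then 3059 and 2759, its highest values of the series. It differed by 1.40 ± 0.32, with steps of 0.95 and 1.85, and by 0.88 without hour 34.

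Pnpla3, a lipase of the lipid droplet that is induced by insulin, read 1103 and 1009 before and 2012 and 1572 after, and the ZT10 pair was the lowest of the series. Lep, the gene of the fat hormone leptin and the adipocyte marker with the largest difference, read 774 and 711, then 1977 and 1036, so its difference of 0.93 ± 0.25 rests mostly on hour 14, with steps of 1.33 and 0.53. Of 17 lipid synthesis genes, 9 were higher at ZT14 without overlap (52.9%, against 14.7% of all genes) and 2 lower (11.8%, against 35.6%), with a median of 0.16. With hour 10 alone as ZT10 9 were higher and 4 lower, against 29.9% and 46.7% of all genes. Acly, which supplies cytosolic acetyl-CoA, read 2732 and 2490 at ZT10 and 3270 and 3362 at ZT14. The fatty acid synthase gene Fasn and the acetyl-CoA carboxylase gene Acaca, chosen after their values were seen, differed by 0.32 and 0.28.

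Genes that answer to fasting showed no excess of lower values as lists. Of 17 fatty acid oxidation genes, 5 were lower (29.4%) and 3 higher (17.6%), and of 18 genes that respond to fasting or insulin, 5 were lower (27.8%) and 2 higher (11.1%), against 35.6% and 14.7% of all genes. Against hour 10 alone, 8 of the first list were lower and 6 higher, and 10 of the second lower and 6 higher, against 46.7% and 29.9% of all genes. The members described next were picked for their small p. Angptl4, which inhibits lipoprotein lipase in fasting, read 1339 and 1275, then 828 and 919. Cpt1a, the entry enzyme of fatty acid oxidation, read 3497 and 2937, then 2384 and 2696. Txnip, an inhibitor of glucose uptake, read 7056 and 7658, then 5139 and 5318, a difference of -0.49 ± 0.12 with an adjusted p of 0.801, and Ddit4, an inhibitor of mTOR, read 1119 and 1171, then 814 and 881.

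The liver sum went in opposite ways on the 2 days, from 125920 to 81948 on day 1 and from 31042 to 113050 on day 2. Angptl8, Thrsp, Pnpla3 and Ppp1r3c were higher at ZT14 on both days. With the mean level of the liver list as a covariate, chosen after seeing the data, 0 genes were called for the step. In the contrast with the step across lights on, the same covariate gave 4 calls in limma in place of 3, and the one added was Thrsp, with a contrast of 2.40 and an adjusted p of 0.0312. In Thrsp and Angptl8 the step was larger on day 2. Over the alternative settings, the covariate fit among them, the step stayed between 1.46 and 2.11 for Angptl8 and 0.88 and 1.92 for Thrsp. For Pnpla3 it stayed between 0.57 and 0.92 and for Ppp1r3c between 1.38 and 1.85. Beyond the covariate fit, the part of the liver transcripts in the steps of these 4 genes was not tested.

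Several genes of muscle metabolism were higher at ZT14. Ppp1r3c targets protein phosphatase 1 to glycogen and so promotes its storage. It read 492 and 650 at ZT10, the lowest of the series, and 2080 and 1498 at ZT14. The difference was 1.61 ± 0.27, 3.06-fold, with an adjusted p of 0.429, and 1.81 without hour 34. Lrrc30 read 240 and 301, then 856 and 606, a difference of 1.37 ± 0.24. Asb2, a substrate adaptor of a muscle ubiquitin ligase, read 673 and 715, then 1303 and 1070. Ppp1r27, another phosphatase 1 subunit, read 156 and 237, then 404 and 290, with steps of 1.28 and 0.28.

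Of 16 genes of muscle regulation and rhythm, 10 were higher without overlap (62.5%, against 14.7% of all genes) and 1 lower, with a median of 0.41 on day 1 and 0.06 on day 2. With hour 10 alone as ZT10, 15 of 16 were higher, against 29.9% of all genes. The contractile genes differed in the same direction by less: 14 of 21 skeletal muscle markers were higher without overlap (66.7%) and 0 lower, with a median of 0.12, or 0.19 on day 1 and 0.02 on day 2. All 21 of 21 read above hour 10 on both ZT14 arrays, against 29.9% of all genes. The fast myosin light chain Mylpf read 2948 and 2806, then 4074 and 3731, and the creatine kinase Ckm 10608 and 10414, then 12671 and 12016. The summed muscle markers were 150660 and 161390 at ZT10 and 171580 and 165760 at ZT14, within the 126250 to 187010 of the whole series. Their part in the higher values of the other muscle genes was not tested. Endothelial markers were higher in 7 of 13 without overlap (53.8%, against 14.7% of all genes) and lower in 1, with Esam at 1027 and 1117, then 1364 and 1202. With hour 10 alone as ZT10, 10 of 13 were higher (76.9%, against 29.9% of all genes). Of 15 genes of glucose uptake and glycolysis, 8 were higher (53.3%) and 2 lower (13.3%, against 35.6% of all genes). Hexokinase 2, Hk2, read 1157 and 1379, then 1736 and 1582, whereas Pfkfb3, which makes the activator of phosphofructokinase, read 1061 and 1221, then 760 and 881.

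**Figure D4:**
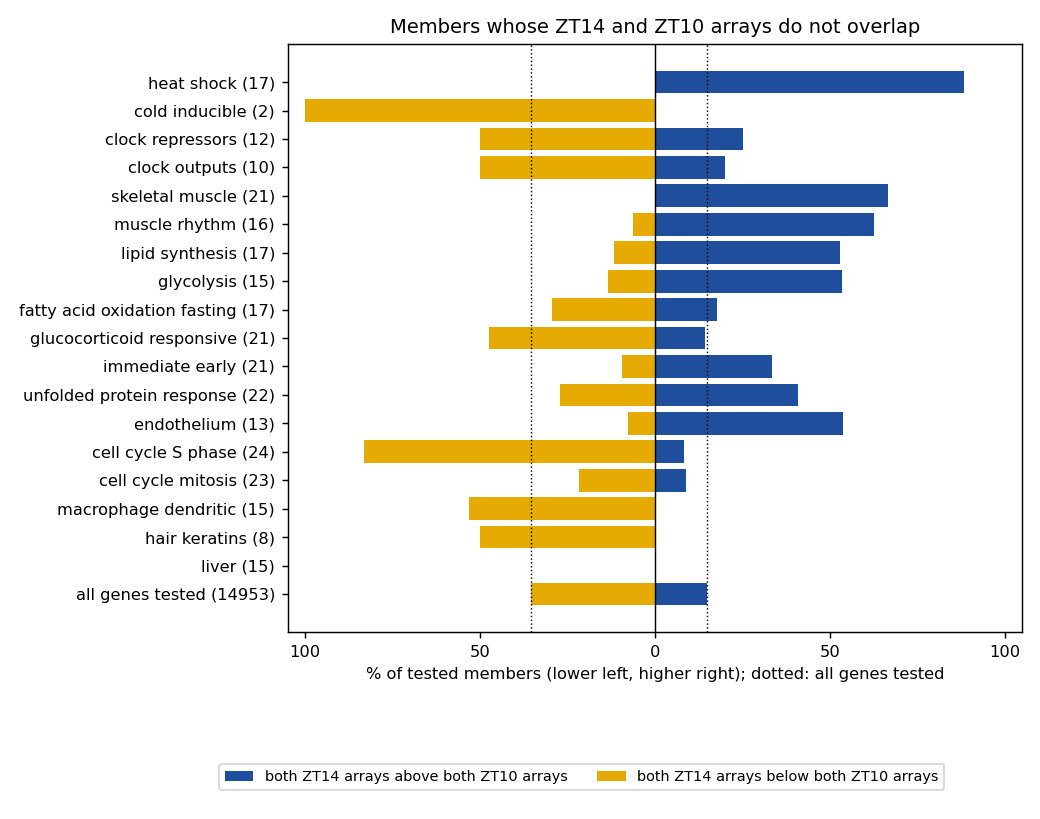
Share of the tested members of each list (x axis, %) whose ZT14 arrays both lay above (blue, to the right) or both below (yellow, to the left) the ZT10 arrays, with the number tested in brackets (y axis) and dotted lines at the shares over all 14953 genes, 14.7% above and 35.6% below. Heat shock genes reach farthest to the right, 15 of 17, the S phase list has 20 of 24 to the left, and the liver list has 0 of 15 on either side.

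DNA replication genes were lower at ZT14. Of 24 S phase genes, 20 were lower without overlap and 2 higher, where 35.6% of all genes were lower. None passed the test, 6 were lower at an unadjusted p under 0.05, and the median was -0.21, or -0.26 on day 1 and -0.13 on day 2. After quantile normalization 18 were lower, where 26.6% of all genes were, and with hour 10 alone as ZT10, 21, against 46.7% of all genes. Mcm4 and Mcm6, subunits of the replicative helicase, read 899 and 952, then 700 and 776, and 1061 and 1046, then 776 and 854. Their differences were -0.32 ± 0.10 and -0.37 ± 0.14. In the step before, from ZT6 to ZT10, the median of the list was 0.16. Mitosis genes had 2 of 23 higher (8.7%) and 5 lower (21.7%), both below the shares of all genes, and a median of -0.03. With hour 10 alone as ZT10, 9 were higher (39.1%, against 29.9% of all genes) and 6 lower (26.1%, against 46.7%). The mitotic kinase Cdk1, among the 5 lower without overlap, read 355 and 417, then 306 and 334.

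Glucocorticoid-responsive genes were lower in 10 of 21 (47.6%, against 35.6% of all genes) and higher in 3 (14.3%, against 14.7%). With hour 10 alone as ZT10, 12 were lower and 5 higher, against 46.7% and 29.9% of all genes. Among the members with the smallest p, Cebpd, a transcription factor of the acute response, read 395 and 440, then 292 and 296, and Errfi1, a brake on the EGF receptor, read 7055 and 6631, then 5038 and 5181. Immediate early genes were higher in 7 of 21 (33.3%, against 14.7% of all genes) and lower in 2, and 0 were lower after quantile normalization. Without hour 34 the count was larger, and 17 of 21 (81%, against 29.9% of all genes) read above hour 10 on both ZT14 arrays. Fos read 374 and 614 at ZT10 and 733 and 932 at ZT14, but with an SE of 0.52 around its difference of 0.76, and other arrays lay between 246 and 794. Ier2 read 266 and 255, then 319 and 360.

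Markers of immune cells were lower at ZT14 or overlapped between the 4 arrays. Macrophage and dendritic cell markers were lower in 8 of 15 (53.3%), chemokines and cytokines in 7 of 15 (46.7%) and T and mast cell markers in 4 of 10 (40%), where 35.6% of all genes were lower, so the last share was near that of all genes. In each of these lists 0 were higher, where 14.7% of all genes were. After quantile normalization 6, 7 and 4 were lower, against 26.6% of all genes, and 1 of each list was higher. With hour 10 alone as ZT10, 3 of 15 macrophage and dendritic cell markers were higher and 8 lower, against 29.9% and 46.7% of all genes, and of the chemokines and cytokines 1 was higher. Mrc1, the mannose receptor of macrophages, read 2302 and 2798, then 1951 and 1867. The eosinophil attractant Ccl11 read 1624 and 1816, then 1273 and 1141. Lilr4b, a receptor of myeloid cells, read 754 and 900, then 422 and 563, and S100a4 read 1070 and 1298, then 673 and 843. The summed macrophage and dendritic cell markers read 39425 and 42998, then 35749 and 38013. Whether fewer such cells were sampled was not tested.

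Other genes with large lower values had no list in common. Aldh1l2, a mitochondrial enzyme of folate metabolism, read 833 and 1076, then 475 and 602, and the ZT14 pair was the lowest of the series. Vsnl1, a neuronal calcium sensor, read 1080 and 1244, then 680 and 769, again the lowest of the series, and so did B3galt2, a galactosyltransferase, with 820 and 831, then 512 and 554. Vstm2a and Gm4924 differed by -0.73 and -0.64. Tppp3, a tubulin-binding protein, was higher, with 2838 and 3654 before and 5572 and 5208 after.

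The step across lights off was then set against the step across lights on, from ZT22 to ZT2. That step has 5 arrays of its own and shares none with ZT10 and ZT14. Its arrays differed in liver and hair transcripts. The liver sums at ZT22 were 35781 and 20918, against a median of 78477 over the series. The hair keratin list summed to 27711 at hour 46, against a median of 3702.8 over the series. From ZT22 to ZT2 the median difference was 2.33 in the liver list and -0.94 in the hair keratin list. In limma, 3 of 14953 genes (0.0201%) differed between the 2 steps at an adjusted p of 0.0203 each, and 577 at an unadjusted p under 0.05. Nr1d1 was 2.01-fold lower after lights off and 1.89 higher on the log2 scale after lights on, a contrast of -2.90 ± 0.31. It read 1392 and 1460 at ZT22 and 5021, 5663 and 5328 at ZT2. Hsph1 differed by 0.93 across lights off and -0.39 across lights on, a contrast of 1.33 ± 0.16. Lonrf3, which encodes a RING finger protein with a LON domain, read 177 and 188 at ZT10, 302 and 292 at ZT14, 370 and 291 at ZT22 and 188, 201 and 186 at ZT2. The contrast was 1.39 ± 0.16. With the liver level as a covariate the contrasts of Nr1d1, Hsph1 and Lonrf3 were -2.93, 1.35 and 1.40. Without hour 46, the array with the high hair keratin sum, they were -2.93, 1.41 and 1.55. Beyond these fits, the part of liver and hair transcripts in the contrast was not tested.

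In all 3 genes the steps across lights off and lights on had opposite signs. The values at ZT2 lay closer to those at ZT10 than the values at ZT22 did. All arrays came from the same light cycle, so light, feeding and the phase of the clock cannot be told apart in these steps. Cry1 (1.51 ± 0.20, adjusted p 0.0536), Cirbp (-1.08 ± 0.18, 0.352) and Pnpla3 (1.07 ± 0.19, 0.38) were next in limma and did not pass. The calls rest on few arrays. Their number was 0 without hour 6, 10, 14, 26, 30, 34 or 50, 2 without hour 2, 18, 38 or 42, 4 without hour 46 and 62 without hour 22. It was also 0 with the collection day as a block. Over 26 alternatives Nr1d1 was called in 17 and Hsph1 in 13. Lonrf3 was called in 12 of 25, since it is too dim to be kept when the dimmest 50% are left out. The contrasts of Nr1d1, Hsph1 and Lonrf3 stayed between -3.15 and -2.64, 1.24 and 1.42, and 1.17 and 1.55. Their adjusted p ranged from 0.00118 to 0.168, 0.00781 to 0.364 and 0.00293 to 0.433.

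Against the step just before it, from ZT6 to ZT10, no gene differed in limma (0 of 14953, 0%), with 614 at an unadjusted p under 0.05. Array weights gave 6 calls. The 2 steps share the ZT10 arrays, so a low or high ZT10 value enters both with opposite signs. The smallest p values belonged to Arntl, E230001N04Rik, Ppp1r27 and Hsph1, each with an adjusted p of 0.496. Arntl differed by -0.88 from ZT6 to ZT10 and by 0.86 from ZT10 to ZT14. Ciart differed by 0.98 and then by -1.14, a turn of -2.12 ± 0.40 with an adjusted p of 0.794. Hspb8 differed by -0.39 and then by 0.52. Per2, by contrast, read 676 and 421 at ZT6, 1545 and 1537 at ZT10 and 1904 and 1768 at ZT14, with no turn at ZT10.

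The days differed most in genes of the liver list and their like. In 200 genes the steps passed 1.5-fold in opposite directions, and all 200 were lower at ZT14 on day 1 and higher on day 2. Hour 34 was the lowest of the 4 arrays in 199 of them and hour 10 the highest in 183, and 10 of the 15 liver list genes were among the 200. The list had a median step of -0.85 on day 1 and 2.90 on day 2, and its arrays overlapped in 15 of 15 genes. The gene with the widest gap, the cytochrome P450 Cyp2b9, read 3748 and 287 at ZT10 and 840 and 3957 at ZT14. Cyp2c29 read 4381 and 229, then 1958 and 3814, and Serpina6, the corticosteroid-binding globulin of plasma, read 4883 and 313, then 1752 and 4051. In Cyp4a14, Cyp4a31 and the hepatokine Lect2, too, hour 34 was the lowest of the 4 and hour 14 the next. In all of these genes the step between ZT10 and ZT14 has no direction that both days share.

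**Figure D5:**
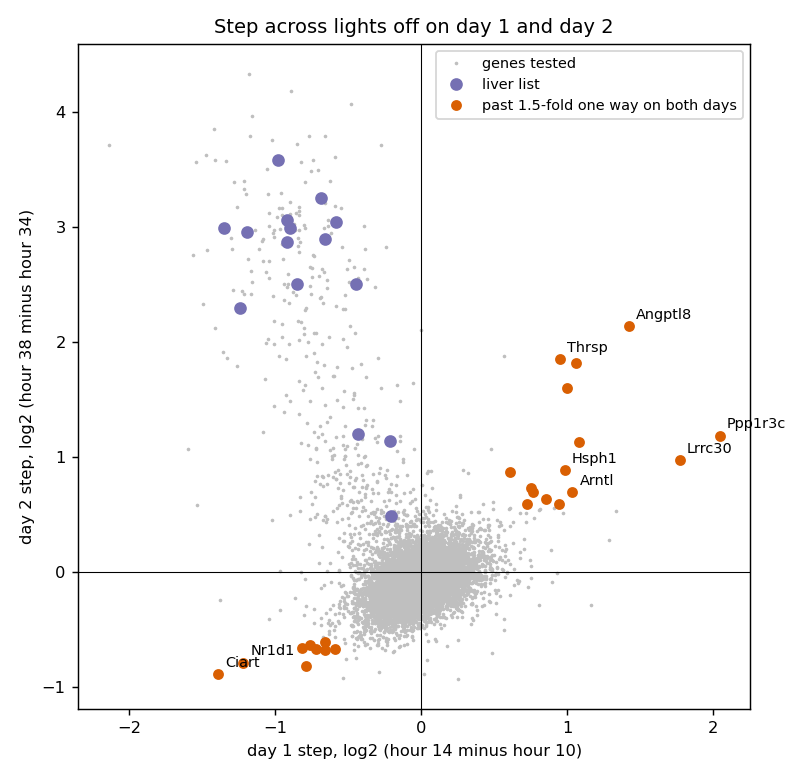
Step on day 2 (y axis, hour 38 minus hour 34) against step on day 1 (x axis, hour 14 minus hour 10) for 14953 genes, both on the scale of log2(intensity + 16), with the liver list in purple and the 24 genes past 1.5-fold in 1 direction on both days in orange. The liver list lies at the upper left, with medians of -0.85 and 2.90, apart from genes such as Angptl8 at the upper right and Ciart at the lower left.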

How the data were processed

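Whole-skin RNA of 13 pools was measured on Affymetrix whole-transcript arrays, 1 array per collection. The values are probe set intensities on a linear scale as deposited. The submitters' processing notes list 2 programs for making them, Affymetrix Expression Console (1.1.1) and PLIER (2.0). How arrays were normalized to each other, and on which genome build, is not given in the sources used here. Platform annotation pairs 21789 of the 35557 probe sets with a single gene, and 21698 probe sets found their gene in RefSeq; 1621 with several genes and 12147 without an entry were not used. Each gene kept its brightest probe set, which gave 19938 genes. Genes in the dimmest 25% were then dropped, and 14953 were tested as log2(intensity + 16), a scale that understates the folds of dim genes.

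Times of day came from the collection hours, and arrays of 1 time on successive days were the replicates. Differences were fitted with limma 3.58.1 in R 4.3.3 (lmFit and eBayes) over all 13 arrays with the 6 times as groups (7 residual degrees of freedom), adjusted by Benjamini-Hochberg over all genes tested. The test was also run on simulated data. That outcome is not given here, so how large a step the test could call is not stated. The number of arrays limits the precision. The p-values measure the spread between pools. The hours place arrays of hours 10 and 14 on 1 day and of hours 34 and 38 on the next, and the deviations of hours 10 and 14 from their group means correlated at -0.45 across genes, so the pairing by day rests on the labels' hours alone.

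The arrays follow from their hours, but the choice of this step and of the 44 gene lists (729 genes, 670 with a probe set) was made with earlier results of these data known. The genes named were all measured clock genes, 12 higher and 12 lower with the largest difference at an unadjusted p under 0.05, without overlap and of 1 sign on both days, 2 of each other list by p, 6 by p in each comparison of steps, 6 with the widest gap between days, and the 24 past 1.5-fold on both days. Alternatives covered the offset, the filter, the normalization, the probe set per gene, the variance prior, array weights, the samples fitted, the day as a block, the liver level as a covariate and leaving out each array.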

Additional observations from a re-analysis of the deposited data

Results flagged for a closer look

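In 3 genes the step across lights off differed from the step across lights on in the limma contrast of the 2 steps. The contrast was 1.33 for Hsph1, 1.39 for Lonrf3 and -2.90 for Nr1d1 on the log2 scale.

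In 6 genes and in the liver list the day 1 and day 2 steps had opposite signs, and with 1 step a day this difference was not tested. The day 2 step minus the day 1 step was 5.85 in Cyp2b9, 5.51 in Cyp4a14, 5.27 in Cyp4a31, 5.12 in Cyp2c29, 5.10 in Lect2 and 5.10 in Serpina6. The median day 2 step of the liver list was 2.90, against -0.85 on day 1.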

How the results depend on the processing

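The 0 calls of the step across lights off became 1 with quantile normalization, 1 with arrays shifted to 1 median and 55 with array weights (20 higher, 35 lower), and 0 to 1 when single arrays were left out. With the collection day as a replicate block there were 0 calls over all arrays and 0 over the 4 arrays alone. With the days crossed as the block over the 4 arrays, an alternative chosen after seeing the data, there were also 0. Against the preceding step, array weights gave 6 calls and no other setting gave any. Against lights on, the 3 calls became 0 with the day as a replicate block, 1 with that block over the times compared only, and 0 to 62 when single arrays were left out. Requiring 2-fold on both days left 4 genes, Angptl8, Ppp1r3c, Cyp4a12a and Serpina4-ps1. A lower bar gave 219, and the other settings gave 17 to 27. Of the genes named, 56 were followed over the alternatives for the step, and 3 of these, all near 0, changed sign. Csnk1d was 0.017 with quantile normalization and lay between -0.065 and 0.014 over the fits that left out 1 array. Klf15 was -0.061 with the liver level as a covariate and -0.20 to 0.25 without single arrays, and Tef was -0.063 to 0.14. The cause of these changes was not tested. With 2 pools a side, the spread between pools limits every difference given here.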
